A study of Mus musculus with 2 samples.

Results

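Peroxisomes are small organelles bounded by a single membrane that shorten very-long-chain and branched fatty acids, break down hydrogen peroxide and start the synthesis of ether lipids such as plasmalogens. Their proteins are made in the cytosol and imported by the peroxins, the products of the Pex genes, and the organelles multiply with the help of the PEX11 proteins. Many of the lipid enzymes are induced through the nuclear receptor PPARα in rodent liver, and in brown fat peroxisomes increase in number in the cold. The genes described here are those of the authors' gene table whose symbol is that of a peroxin, which gave 17 genes, and 27 named genes of peroxisomal lipid enzymes, transporters and catalase. These are 44 of the 23609 genes in the table, and 43 of them passed a filter of more than 0.5 CPM, the reads of a gene scaled to the same total in both libraries, in at least 1 library.

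Pericardial adipose tissue (PAT), the fat around the heart, was taken 24 h after the left anterior descending artery (LAD) of the heart was tied off for good, which causes a myocardial infarction. The compared libraries were P2Y4 KO PAT, from C57BL/6J mice that lack the nucleotide receptor P2Y4, and WT PAT, from C57BL/6J mice with the wild type genotype. All mice had the ligation, and the study used males and females of 11 to 13 weeks. RNA of 3 mice was pooled into 1 library for each genotype, so no difference has a replicate check, no p-value is given, and differences between mice, dissections and library preparations cannot be told apart from genotype. Fewer cells of a type and less RNA per cell also cannot be told apart in such bulk tissue.

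The deposited values correspond to 14885774 reads in the P2Y4 KO library and 15508820 reads in the WT library, and the 43 genes had a median of 571 reads in P2Y4 KO and 450 reads in WT PAT. Each P2Y4 KO/WT ratio is given with its exact 95% interval (Clopper-Pearson, conditional on the reads of both libraries), which covers counting error only. A ratio of at least 2 counts as higher and a ratio of at most 0.5 as lower, the fold threshold of the study. P2ry4, the deleted gene, was not analysed here, so the labels were not checked against it. The tissue label was checked against adipocyte markers, and Fabp4, the fatty acid-binding protein of adipocytes, stood at 1914 CPM in P2Y4 KO and 1293 CPM in WT PAT. Alb (albumin), a marker of liver, the organ best known for its peroxisomes, stood at 0.15 CPM in P2Y4 KO and 1 CPM in WT PAT. Of the 8 liver genes looked at, 3 passed the filter, 1 of them higher and 2 lower. The higher gene was Cyp2e1, at 106 CPM in P2Y4 KO and 47.5 CPM in WT PAT.

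Of the 43 genes, 35 had a ratio above 1, and 5 reached the threshold for higher. Over all genes past the filter, 9148 of 18474 had a ratio above 1. Catalase (Cat), the thiolase gene Acaa1b, the phytanoyl-CoA hydroxylase gene Phyh and the Nudix hydrolase genes Nudt7 and Nudt12 were higher in P2Y4 KO PAT, and Pex5l was lower. The 5 higher genes are 11.6% of the 43, where 8.75% of the 18474 genes past the filter were higher, and the 1 lower gene compares with 4.40% of all genes. When the ribosomal protein genes, whose median ratio was 0.876, serve as the fixed scale, every log2 ratio gains 0.19, and 11.4% of all genes are then higher and 2.94% lower. On that scale 10 of the 43 genes are higher, with Abcd2, Amacr, Ech1, Pex11a and Scp2 added, and none is lower. The whole interval lay at or above 2 for Cat, Acaa1b and Phyh, and for 3.05% of all genes. A further 8 genes had ratios from 1.5 to under 2. A ratio of at least 1.5 was found for 13 of the 43 genes (30.2%) and for 16.5% of all genes. The interval lay wholly above 1 for 25 of the 43 (58.1%), against 25.2% of all genes, and wholly below 1 for 3, against 23.5% of all genes. An interval is narrower for a gene with more reads, and the median over all tested genes was 269 reads in each library. The median log2 ratio was 0.39 over the 43 genes and 0.00 over all genes.

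**Figure D1:**
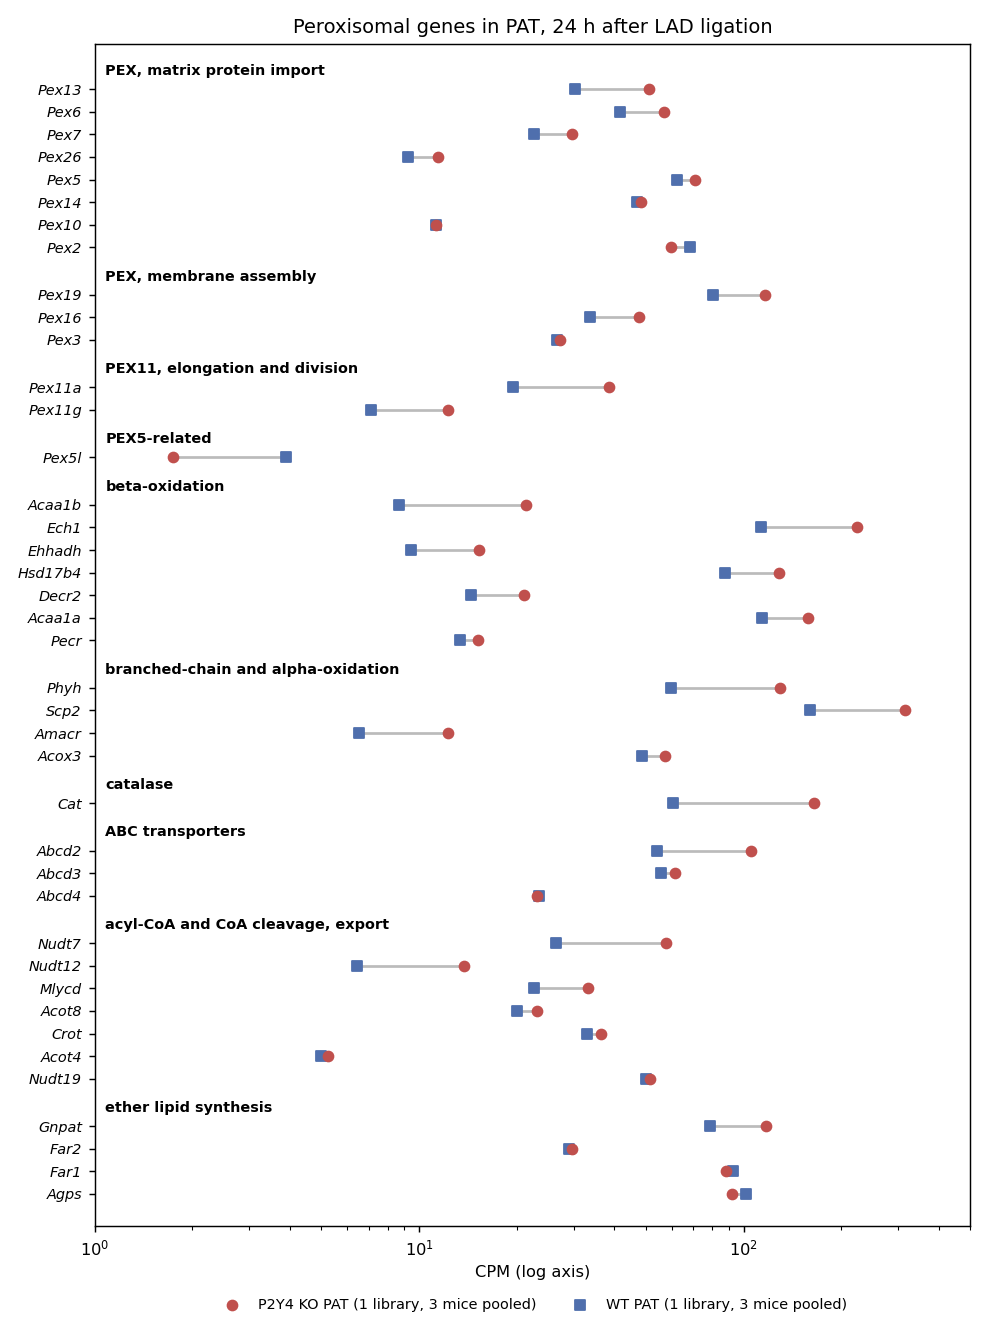
CPM (log axis) of 40 of the 43 peroxisomal genes past the filter in the P2Y4 KO library (circles) and the WT library (squares), grouped by role and joined by a grey line, with no error bars because each genotype has 1 library. Scp2 and Ech1 lie farthest to the right in P2Y4 KO PAT, at 314 and 224 CPM, and Pex5l, at 1.75 CPM in P2Y4 KO and 3.90 CPM in WT PAT, lies farthest to the left.

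The Pex genes had a lower median ratio than the enzymes. None of the 17 Pex genes was higher and 1 (Pex5l) was lower, and their median log2 ratio was 0.20. Over all genes, 8.75% were higher and 4.40% lower, so the lack of a higher gene among 17 is little different from that share. Of the 26 enzyme, transporter and catalase genes past the filter, 5 (19.2%) were higher and none lower, and the median of the log2 ratio was 0.55. The summed CPM of the Pex genes was 636 in P2Y4 KO and 519 in WT PAT, a ratio of 1.23 (1.19 to 1.26), and that of the enzyme group was 1999 in P2Y4 KO and 1295 in WT PAT, a ratio of 1.54 (1.52 to 1.57). Whether the groups differ beyond the variation between mice could not be tested with 1 library per genotype.

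The promoter windows that bear on these genes were taken from RefSeq (GRCm38.p6, 250 bases before to 50 bases after the start), which gave a window for 33 of the 44 genes. PPARα binds with RXR to a direct repeat of AGGTCA with 1 base between the copies. This direct repeat was searched without mismatches on both strands and was found in none of the 33 genes and in 0.0481% of the 27025 genes with a window. A single AGGTCA, which is also part of the direct repeat, was found on either strand in 5 of the 33 genes (15.2%), namely Cat, Scp2, Pex11g, Acot4 and Phyh, and in 18.1% of all genes with a window. In Phyh it lies after the start, 36 bases downstream of it. The 4 windows that hold it before the start are printed here because their genes differ in ratio, Cat at 2.72, Scp2 at 1.96, Pex11g at 1.73 and Acot4 at 1.05. The windows of the thiolase pair Acaa1b and Acaa1a, which hold no AGGTCA, follow because these genes, both on chromosome 9, encode closely related enzymes and had ratios of 2.46 and 1.39. Each line gives the 250 bases before the start, 5′ to 3′ on the strand of the gene, with AGGTCA or its reverse complement in capitals. The starts are those of RefSeq. The windows of Scp2 and Acaa1a lie inside the spans of these genes in GENCODE M21, whose 5′ ends are at bases 108144998 and 119339676. They are therefore not the bases before the 5′ end of the annotated gene, to which the ratio belongs. In Cat the hexamer begins 204 bases before the start, in Pex11g 173, in Scp2 109 and in Acot4 13 bases, in Acot4 on the opposite strand.
Cat (chr2:103485154-103485403, minus strand): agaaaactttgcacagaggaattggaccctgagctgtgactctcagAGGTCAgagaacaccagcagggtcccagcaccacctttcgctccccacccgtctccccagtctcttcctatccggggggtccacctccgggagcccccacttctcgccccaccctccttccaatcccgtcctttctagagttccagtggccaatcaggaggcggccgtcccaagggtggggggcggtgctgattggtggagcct
Scp2 (chr4:108118548-108118797, minus strand): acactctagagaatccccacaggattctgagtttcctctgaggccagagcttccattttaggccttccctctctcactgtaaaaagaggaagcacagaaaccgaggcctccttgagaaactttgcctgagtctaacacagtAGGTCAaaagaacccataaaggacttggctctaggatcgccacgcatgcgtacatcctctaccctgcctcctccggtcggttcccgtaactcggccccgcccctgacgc
Pex11g (chr8:3467649-3467898, minus strand): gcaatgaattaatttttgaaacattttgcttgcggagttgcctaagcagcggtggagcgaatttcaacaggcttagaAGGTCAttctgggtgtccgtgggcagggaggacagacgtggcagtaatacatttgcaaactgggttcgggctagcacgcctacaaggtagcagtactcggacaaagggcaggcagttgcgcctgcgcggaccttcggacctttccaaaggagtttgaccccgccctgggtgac
Acot4 (chr12:84038129-84038378, plus strand): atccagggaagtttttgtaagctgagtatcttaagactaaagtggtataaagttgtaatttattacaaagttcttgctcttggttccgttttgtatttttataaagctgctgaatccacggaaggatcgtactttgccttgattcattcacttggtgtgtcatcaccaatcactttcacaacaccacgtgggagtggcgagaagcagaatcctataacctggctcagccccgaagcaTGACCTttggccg
Acaa1b (chr9:119157094-119157343, minus strand): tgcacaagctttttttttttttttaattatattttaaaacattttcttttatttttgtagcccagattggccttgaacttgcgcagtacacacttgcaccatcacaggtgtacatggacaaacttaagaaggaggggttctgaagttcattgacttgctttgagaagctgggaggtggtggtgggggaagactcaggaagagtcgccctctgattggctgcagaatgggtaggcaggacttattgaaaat
Acaa1a (chr9:119341044-119341293, plus strand): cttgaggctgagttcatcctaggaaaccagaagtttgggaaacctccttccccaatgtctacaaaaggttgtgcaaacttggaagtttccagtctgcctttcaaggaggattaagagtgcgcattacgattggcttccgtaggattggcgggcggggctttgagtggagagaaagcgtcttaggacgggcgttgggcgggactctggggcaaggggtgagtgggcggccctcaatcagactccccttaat

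The enzymes of straight-chain beta-oxidation all had ratios above 1. In this pathway the acyl-CoA is hydrated and oxidised by a multifunctional enzyme, Ehhadh or Hsd17b4, and cleaved by a thiolase. Acaa1b, 1 of the mouse thiolase genes, had 317 reads (21.3 CPM) in P2Y4 KO and 134 reads (8.65 CPM) in WT PAT, a ratio of 2.46 (2.01 to 3.04). Acaa1a, which had more reads also per kilobase of exon, stood at 158 CPM in P2Y4 KO and 114 CPM in WT PAT, a ratio of 1.39 (1.30 to 1.48). In GENCODE M21 (GRCm38) Acaa1a (ENSMUSG00000036138) is annotated on the plus strand of chromosome 9, bases 119339676 to 119350299, and Acaa1b (ENSMUSG00000010651) on its minus strand, bases 119148023 to 119157093. Of the 1913 different stretches of 50 bases in the Acaa1b transcripts, 583 (30.5%) also stand in a transcript of Acaa1a, so that reads can be shared and the values of both genes are less certain. The share of Acaa1b in the reads of the pair was 11.9% (10.7 to 13.2) in P2Y4 KO and 7.07% (5.96 to 8.32) in WT PAT. Exact binomial intervals are given for such shares, and here they do not overlap.

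Hsd17b4 stood at 129 CPM in P2Y4 KO and 87.4 CPM in WT PAT, a ratio of 1.47 (1.37 to 1.58). Ehhadh, which is strongly inducible in rodent liver, stood lower also per kilobase of exon, at 15.3 CPM in P2Y4 KO and 9.45 CPM in WT PAT, a ratio of 1.62 (1.32 to 2.02). Ehhadh gave 10.6% (9.35 to 12.0) of the reads of this pair in P2Y4 KO and 9.73% (8.27 to 11.3) in WT PAT, and these intervals overlap. Other enzymes of this group act on double bonds. Ech1, a dienoyl-CoA isomerase, had 224 CPM in P2Y4 KO and 113 CPM in WT PAT, and its ratio of 1.98 (1.87 to 2.10) lies just under the threshold. Decr2, the peroxisomal dienoyl-CoA reductase, had a ratio of 1.46 (1.23 to 1.74). Pecr, an enoyl-CoA reductase that belongs to chain elongation rather than to oxidation, had 15.2 CPM in P2Y4 KO and 13.3 CPM in WT PAT, a ratio of 1.13 whose interval (0.933 to 1.37) spans 1.

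Genes of branched-chain and alpha-oxidation had the highest median log2 ratio of the role groups with more than 1 gene, 0.94 over 4 genes. Phyh, the hydroxylase that opens the alpha-oxidation of phytanic acid from the diet, had 129 CPM in P2Y4 KO and 59.8 CPM in WT PAT, a ratio of 2.16 (2.00 to 2.34). Scp2, which encodes both a thiolase of branched chains and the sterol carrier protein, stood at 314 CPM in P2Y4 KO and 160 CPM in WT PAT, a ratio of 1.96 (1.87 to 2.06). Stretches that also stand in other genes, all of them in the pseudogene Scp2-ps2, make up 29.7% of the 50-base stretches in the Scp2 transcripts, so its value is less certain. Amacr, the racemase that prepares these acids for oxidation, had a ratio of 1.88 (1.47 to 2.43) at 12.3 CPM in P2Y4 KO and 6.55 CPM in WT PAT. The pristanoyl-CoA oxidase gene Acox3 stood at 57.3 CPM in P2Y4 KO and 48.8 CPM in WT PAT, a ratio of 1.17 (1.06 to 1.30). Acox2, the branched-chain oxidase of bile acid synthesis, had 3 reads in P2Y4 KO and 1 read in WT PAT and is the 1 gene that did not pass the filter. The interval of its ratio ran from 0.251 to 164, so these reads cannot show a difference.

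Cat had the highest ratio of the 43 genes. Catalase breaks down the hydrogen peroxide that the peroxisomal oxidases release. It had 2455 reads (165 CPM) in P2Y4 KO and 941 reads (60.7 CPM) in WT PAT, a ratio of 2.72 (2.52 to 2.93). Cat (ENSMUSG00000027187) is annotated on the minus strand of chromosome 2, bases 103453849 to 103485160. Per kilobase of annotated exon, Cat stood at 63.1 CPM in P2Y4 KO and 23.2 CPM in WT PAT, at percentile 94.3 of all genes past the filter in P2Y4 KO and percentile 83.8 in WT PAT. On this scale of level per length, Ech1 was the most abundant of the 43 genes, at 98.0 CPM per kilobase in P2Y4 KO and 49.5 in WT PAT, and Scp2 was next, at 90.3 in P2Y4 KO and 46.1 in WT PAT.

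**Figure D2:**
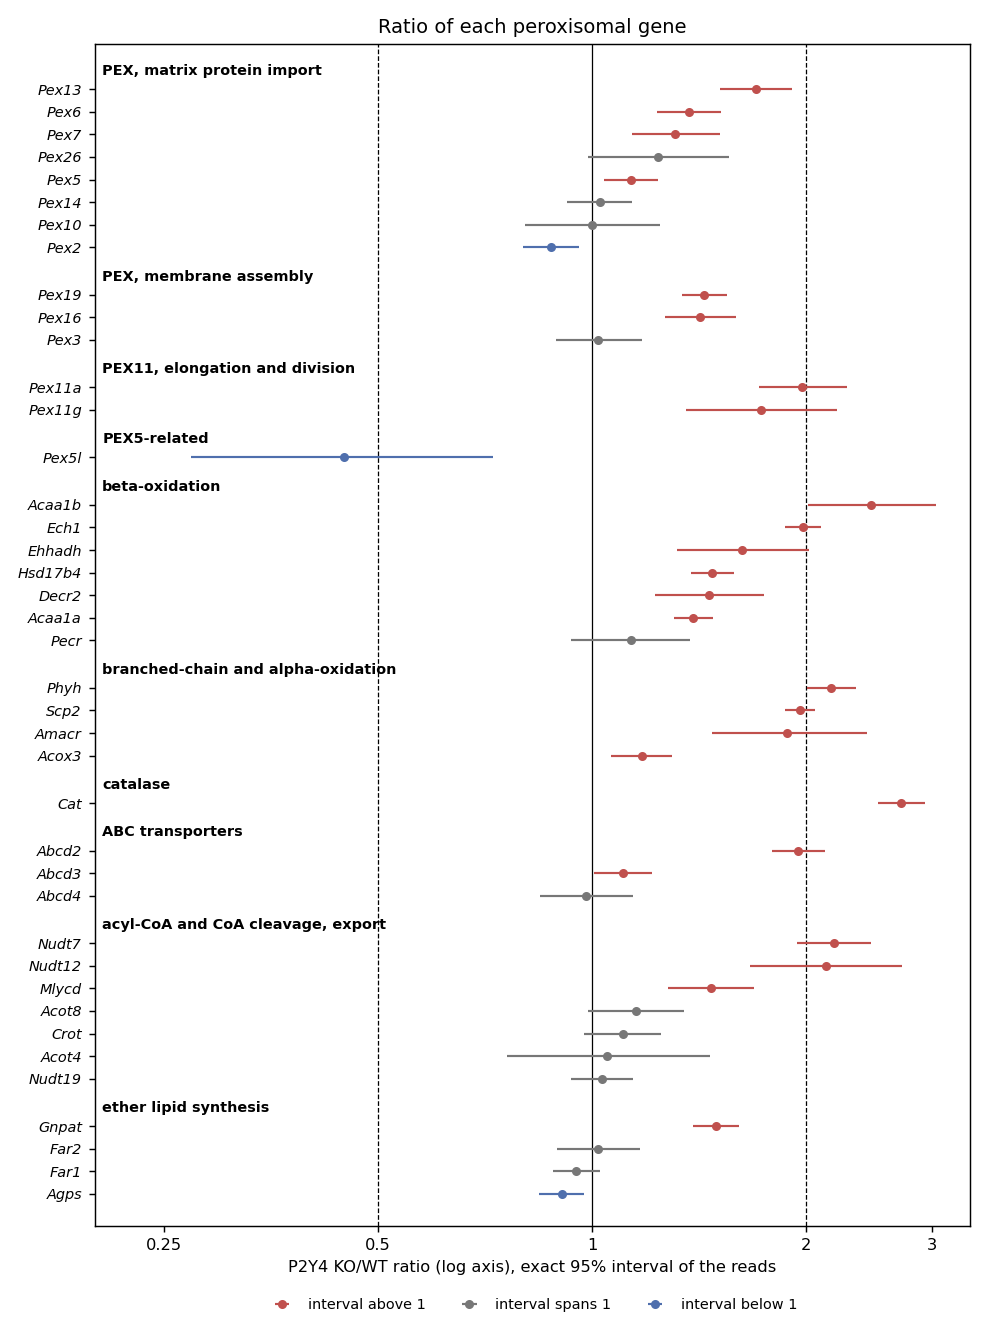
P2Y4 KO/WT ratio (log axis) of 40 of the 43 genes, each with its exact 95% interval, grouped by role, with the interval coloured by its place relative to 1 and dashed lines at 0.5 and 2. Cat, Acaa1b and Phyh have whole intervals at or above 2, and Pex5l, Pex2 and Agps have whole intervals below 1.

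Among the half-transporters of the ABCD family, of which Abcd2 and Abcd3 import fatty acyl-CoAs, Abcd2 had the highest ratio of the 3 genes. Abcd2, whose product prefers very-long-chain and polyunsaturated acids, had 105 CPM in P2Y4 KO and 54.0 CPM in WT PAT, a ratio of 1.95 (1.79 to 2.12). Abcd3, the transporter of branched-chain and dicarboxylic acids, had 61.3 CPM in P2Y4 KO and 55.5 CPM in WT PAT, a ratio of 1.10 (1.005 to 1.21). Abcd4, whose product works in cobalamin transport out of lysosomes, had 23.1 CPM in P2Y4 KO and 23.5 CPM in WT PAT, a ratio of 0.981 (0.845 to 1.14) that lies above 1 on the ribosomal scale. Abcd2 gave 55.5% (53.7 to 57.4) of the reads of these 3 genes in P2Y4 KO and 40.6% (38.5 to 42.8) in WT PAT.

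The enzymes that cleave or export acyl-CoA and free coenzyme A were divided. Nudt7, which hydrolyses coenzyme A inside peroxisomes, had 57.8 CPM in P2Y4 KO and 26.4 CPM in WT PAT, a ratio of 2.19 (1.94 to 2.46). The study lists Nudt7 among its genes of brown fat cell differentiation from these same libraries, and its direction is therefore no independent evidence. Nudt12, an NADH diphosphatase, had 204 reads in P2Y4 KO and 100 reads in WT PAT, a ratio of 2.13 (1.67 to 2.73). Nudt19, another coenzyme A diphosphatase, had 51.5 CPM in P2Y4 KO and 49.95 CPM in WT PAT, a ratio of 1.03 (0.933 to 1.14). The share of Nudt7 in the reads of the 3 Nudix genes was 47.0% (44.7 to 49.3) in P2Y4 KO and 31.9% (29.4 to 34.6) in WT PAT. Mlycd, the malonyl-CoA decarboxylase, which also acts in mitochondria and cytosol, had a ratio of 1.47 (1.28 to 1.69). Crot, which exports medium-chain acids as carnitine esters, stood at 1.10 (0.976 to 1.25), and the thioesterase genes Acot8 and Acot4 at 1.15 (0.986 to 1.35) and 1.05 (0.760 to 1.47), all with intervals that span 1.

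The genes of ether lipid synthesis had a median log2 ratio of -0.02. Gnpat, the acyltransferase that starts the pathway, stood at 118 CPM in P2Y4 KO and 78.8 CPM in WT PAT, a ratio of 1.49 (1.39 to 1.61). Agps, the next enzyme, which puts the ether bond in place, stood at 92.3 CPM in P2Y4 KO and 102 CPM in WT PAT, a ratio of 0.906 (0.842 to 0.975) that becomes 1.03 on the ribosomal scale. Far1 and Far2, the reductases that supply its fatty alcohols, had ratios of 0.9499 (0.881 to 1.02), above 1 on the ribosomal scale, and 1.02 (0.893 to 1.17), and Far1 gave 74.8% of their reads in P2Y4 KO and 76.2% in WT PAT. Of 9 genes of later or related steps outside the peroxisome, 2 were higher and 1 was lower, against 8.75% and 4.40% of all genes. Chpt1, which adds the choline head group, had 282 CPM in P2Y4 KO and 96.3 CPM in WT PAT, a ratio of 2.93 (2.76 to 3.11), and Agmo, which cleaves alkyl ethers, had a ratio of 3.39 (2.11 to 5.96). Selenoi, which adds the ethanolamine head group, had 43.5 CPM in P2Y4 KO and 87.05 CPM in WT PAT, a ratio of 0.4997 (0.454 to 0.549), which is above the threshold of 0.5 on the ribosomal scale.

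Pex11a had the highest ratio of the Pex genes. The PEX11 membrane proteins elongate peroxisomes before they divide, and Pex11a is the member known to be inducible by PPARα ligands in rodent liver. Pex11a (ENSMUSG00000030545, chromosome 7 from 79735957 to 79743131, minus strand) had 571 reads (38.4 CPM) in P2Y4 KO and 301 reads (19.4 CPM) in WT PAT, a ratio of 1.97 (1.72 to 2.28). Pex11g had 12.3 CPM in P2Y4 KO and 7.10 CPM in WT PAT, a ratio of 1.73 (1.35 to 2.20).

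**Figure D3:**
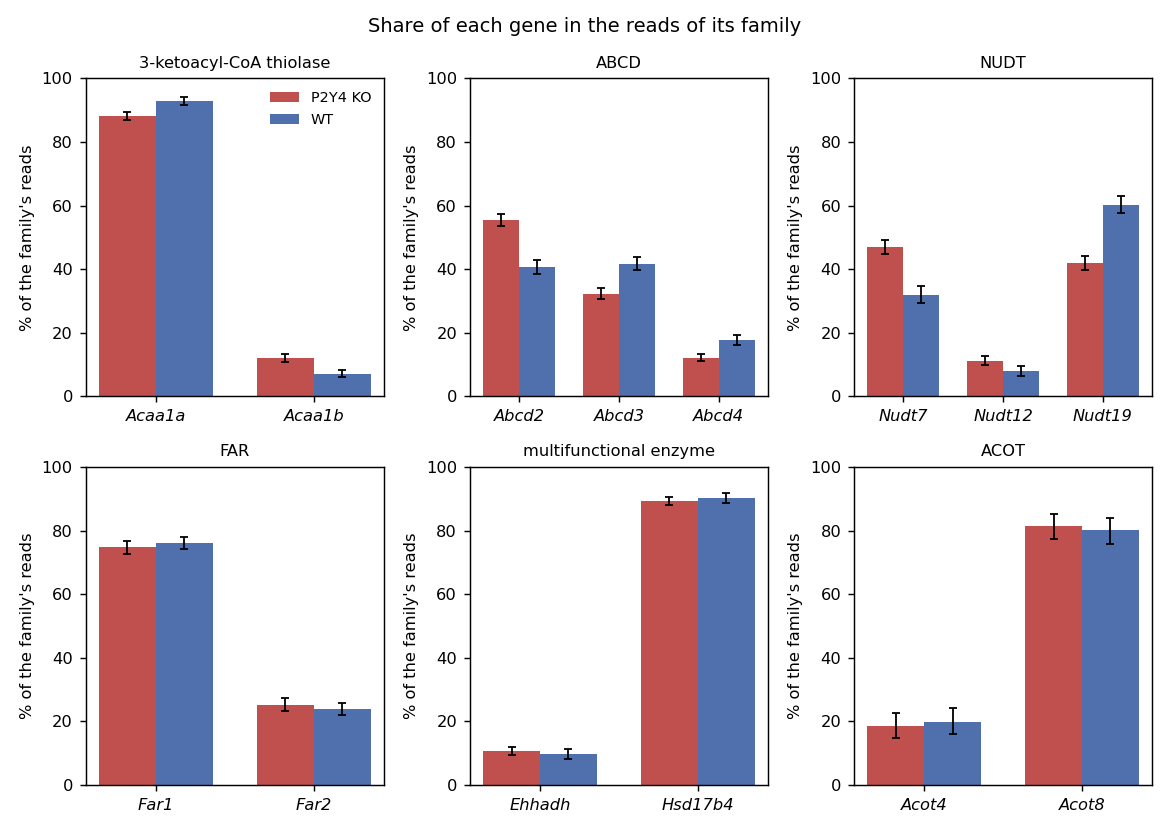
Share of each gene in the reads of its family (percent, axis from 0), with the P2Y4 KO bar left of the WT bar and exact 95% binomial intervals that cover counting error only. The shares of Acaa1b, Abcd2 and Nudt7 are larger in P2Y4 KO than in WT PAT with intervals that do not overlap, while those of the FAR pair, the ACOT pair and the multifunctional enzymes overlap.

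The peroxins of membrane assembly had a median log2 ratio of 0.50. Pex19, the chaperone that carries membrane proteins to the peroxisome, had 116 CPM in P2Y4 KO and 80.8 CPM in WT PAT, a ratio of 1.44 (1.34 to 1.55). In P2Y4 KO PAT it was the Pex gene with the highest level per length, at 30.4 CPM per kilobase of exon, while in WT PAT, at 21.2, it stood under Pex2, at 30.04. Pex16, which helps to recruit Pex3, had a ratio of 1.42 (1.26 to 1.59), and Pex3, the docking site of Pex19, had 27.1 CPM in P2Y4 KO and 26.6 CPM in WT PAT, a ratio of 1.02 (0.888 to 1.17).

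The 10 genes of matrix protein import had a median log2 ratio of 0.19, and the intervals of 5 of them span 1. The receptor gene Pex5, which binds the C-terminal targeting signal of most matrix enzymes, stood at 70.7 CPM in P2Y4 KO and 62.4 CPM in WT PAT, a ratio of 1.13 (1.04 to 1.24). Pex7, the receptor for the N-terminal signal of thiolases, Phyh and Agps, had a ratio of 1.31 (1.14 to 1.51). The docking proteins differed, with Pex13 at 51.1 CPM in P2Y4 KO and 30.1 CPM in WT PAT, a ratio of 1.70 (1.51 to 1.91), and its partner Pex14 at a ratio of 1.02 (0.923 to 1.14). Of the ubiquitin ligase genes, Pex10 had 11.3 CPM in each library (interval of the ratio 0.804 to 1.24) and Pex2 a ratio of 0.875 (0.800 to 0.958). Of the export complex that recycles the receptors, Pex6 had a ratio of 1.37 (1.23 to 1.52) and Pex26, which anchors it to the membrane, 1.24 (0.986 to 1.56). Pex5l, a relative of Pex5 best known as a partner of pacemaker channels in neurons, had 26 reads in P2Y4 KO and 60 reads in WT PAT, a ratio of 0.449 (0.273 to 0.726), and it was no longer lower when 0.5 CPM was added to both libraries or on the ribosomal scale.

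A list of other peroxisomal proteins, which holds none of the 44 genes, had a similar median. Of 45 past the filter, 12 (26.7%) were higher and 1 (2.22%) was lower (median log2 ratio 0.41), against 8.75% and 4.40% of all genes. Ephx2, the epoxide hydrolase of lipid mediators, had 78.0 CPM in P2Y4 KO and 17.8 CPM in WT PAT, a ratio of 4.38 (3.84 to 5.02). Hacl1, the lyase that follows Phyh in alpha-oxidation, had a ratio of 3.25 (2.62 to 4.03), Acad11, an acyl-CoA dehydrogenase, 3.15 (2.76 to 3.59), and Slc27a2, an acyl-CoA synthetase of very long chains, 14.5 (3.52 to 905) from 21 reads in P2Y4 KO and 1 read in WT PAT. The lower gene, the thioesterase gene Acot3, had 2 reads in P2Y4 KO and 9 reads in WT PAT. Of 10 genes of peroxisome division and tethering, which mitochondria partly share, none was higher or lower (median log2 ratio -0.06), with the dynamin gene Dnm1l at 0.883 (0.813 to 0.959), Miga1 at 0.665 (0.542 to 0.812), Miga2 at 1.17 and Acbd4, a tether to the endoplasmic reticulum, at 1.51 (1.31 to 1.73). The 9 genes of pexophagy, the removal of peroxisomes by autophagy, also stayed within a factor of 2 (median log2 ratio 0.12), with Map1lc3b at 1.195 (1.13 to 1.26), Sqstm1 at 1.17 (1.13 to 1.22), Atg5 at 1.14 and the receptor gene Nbr1 at 1.12 (1.04 to 1.2). At the shares over all genes, a group of 9 or 10 genes without a higher or lower gene is not unusual.

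**Figure D4:**
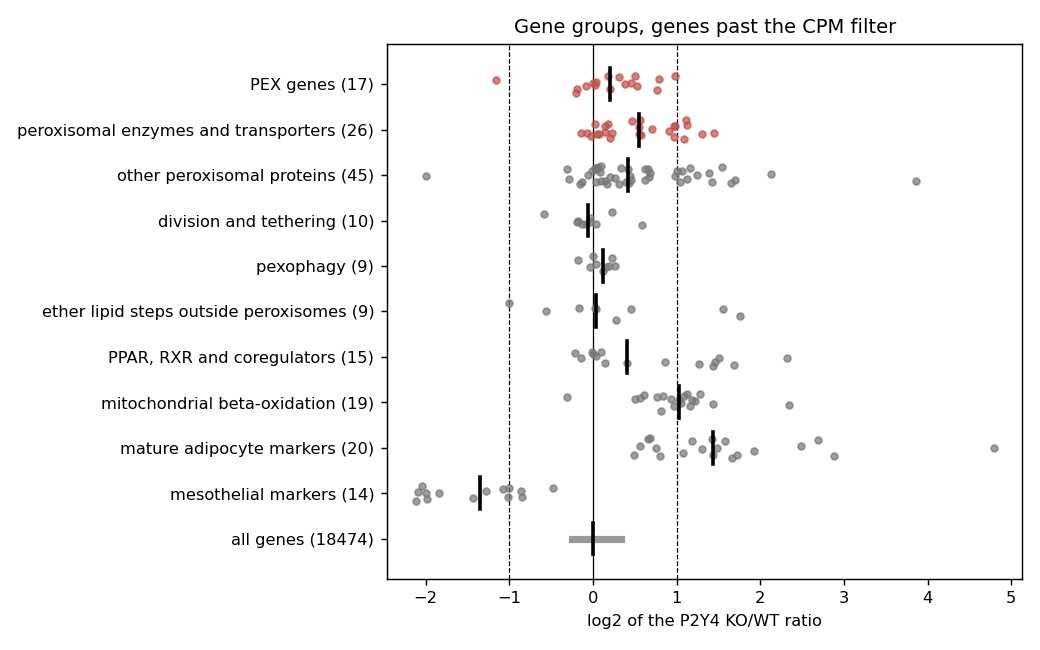
Log2 of the P2Y4 KO/WT ratio for each gene past the filter (points, jittered vertically) in 10 gene groups, with the number of genes in brackets, the group median as a black bar, dashed lines at the threshold, and for all genes the median with the range of the middle 50% as a grey bar. The median is 0.20 for the Pex genes and 0.55 for the peroxisomal enzymes and transporters, 1.03 for mitochondrial beta-oxidation, 1.43 for mature adipocyte markers and -1.35 for mesothelial markers.

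Among 15 genes of the PPAR and RXR receptors and their coregulators, 6 (40.0%) were higher and none lower (median log2 0.41), against 8.75% and 4.40% of all genes. Pparg, the receptor that drives adipocyte differentiation, had 55.0 CPM in P2Y4 KO and 19.4 CPM in WT PAT, a ratio of 2.84 (2.49 to 3.25). Ppara had 57 reads in P2Y4 KO and 21 reads in WT PAT, a ratio of 2.75 (1.69 to 4.91). The coactivator gene Ppargc1a had 37 reads in P2Y4 KO and 7 reads in WT PAT, a ratio of 5 (2.42 to 14.6), and Ppargc1b, Rxrg and Prdm16 had ratios of 2.71, 3.23 and 2.41. Of the other receptors, Nr1h3 stood at 1.81, Rxra at 1.33, Rxrb at 1.02 and Ppard at 0.999. Of the coregulators and Tfeb, a regulator of lysosomes and autophagy, Tfeb stood at 1.10, Ncor1 at 1.07, Med1 at 0.993 and Sirt1 at 0.906. Pparg and Prdm16 are also among the genes of brown fat cell differentiation that the study lists from these libraries. For Prdm16 the study also reports higher levels in P2Y4 KO PAT by quantitative PCR, with and without infarction.

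Fatty acid oxidation in mitochondria, the nearest pathway, is given for comparison. Of 19 genes, 10 (52.6%) were higher and none lower, the median of the log2 ratio was 1.03, and the sum of their CPM was 2767 in P2Y4 KO and 1529 in WT PAT. Over all genes, 8.75% were higher and 4.40% lower. Cpt1b, the carnitine palmitoyltransferase of muscle and brown fat, had a ratio of 5.06, Acadm 2.71 and Decr1, the mitochondrial counterpart of Decr2, 2.43. Hadhb, which encodes the thiolase of the mitochondrial multienzyme complex, stood at 2.28. The exception was Cpt1a, the carnitine palmitoyltransferase of liver, at 0.807 (0.762 to 0.855), the 1 gene of the list with a ratio below 1. Whether these genes and the peroxisomal enzymes differ in ratio could not be tested with 1 library per genotype.

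Markers of several cell types moved between the libraries as well. All 20 markers of mature adipocytes had ratios above 1 and 14 were higher, and their summed CPM was 7564 in P2Y4 KO and 4040 in WT PAT, a ratio of 1.87, with Fabp4 at 1.48 and Lipe, the hormone-sensitive lipase, at 2.98. Of 24 markers of brown and beige adipocytes, 18 were higher and 1 (Zic1) was lower, at a summed 666 CPM in P2Y4 KO and 119 CPM in WT PAT, and Ucp1 alone had 210 CPM in P2Y4 KO and 1.25 CPM in WT PAT. Of 21 cardiomyocyte markers, 19 were higher and 1 (Nppb) was lower, at a summed 1131 CPM in P2Y4 KO and 424 CPM in WT PAT, and Myh6, the heart's alpha myosin, had 115 CPM in P2Y4 KO and 0.30 CPM in WT PAT. Atp2a2 gave 437 CPM of this sum in P2Y4 KO and 396 CPM in WT PAT, at a ratio of 1.10. The median log2 ratio of the cardiomyocyte markers was 5.17. All 14 mesothelial markers had ratios below 1, at a summed 911 CPM in P2Y4 KO and 2676 CPM in WT PAT. The other lists of cell markers had ratios of their summed CPM of 2.61 (skeletal muscle), 1.33 (endothelium), 1.25 (macrophages), 0.858 (neutrophils) and 0.743 (fibroblasts). Such sums follow the most abundant markers. Some genes count in more than 1 list. Of the brown and beige markers, Pparg, Ppara, Ppargc1a and Prdm16 are also PPAR regulators, and Cpt1b is also in the mitochondrial list. Slc27a2 is also among the other peroxisomal proteins, Adrb3 among the mature adipocyte markers, and Ckm is in both muscle lists. Of the fibroblast markers, 7 had ratios above 1 and 7 below, and the endothelial ratios ran from 0.491 to 4.4. Over all genes, 8.75% were higher and 4.40% lower. The part of these cell types in the ratios of the peroxisomal genes was not tested.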

How the data were processed

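RNA of PAT from 3 mice per genotype was pooled into 1 stranded mRNA library each. Per the methods of the study and the submitters' processing notes, the authors mapped paired-end reads with STAR to GRCm38.p4 (mm10) and counted them per gene with HTSeq on Ensembl annotation. Trimmomatic is also named. For tool versions, strand setting and shared reads, the sources used here give nothing. From its values, the signal deposited by the authors is reads per gene, scaled to about 20000000 in each library and rounded up. CPM was this value divided by 20, and a ratio was taken from the deposited values without pseudocount. Reads were recovered from the steps between values (1 read was worth 1.34 in P2Y4 KO and 1.29 in WT PAT). Whole reads times this step, rounded up, gave exactly the deposited value, with no tolerance, for 99.8% of the P2Y4 KO and 99.9% of the WT values. The reads served for the read counts, the intervals, the shares within gene families and some of the alternative scalings and ratios. No count model was fitted. Only genes with at least 1 read in WT are in the table, so others were not analysed here. The authors' own ratios and their table of regulated genes were not used.

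The members, lists and tests were chosen with earlier results of these data known. By the rule, all members are named, and of the other pathway lists the PPAR regulators and up to 4 genes with intervals farthest from 1, and some further genes were picked with their values in view. Some members and other list genes are not reported here, and counts, sums and medians include them. All 44 members matched GENCODE M21, whose exons gave the lengths. Exons of 21 members overlap exons of a gene on the opposite strand, in 6 of them by 500 bases or more, and exons of 4 members overlap a gene on the same strand, so their reads may be mixed. Protein sequences were not used here, so the planned search for targeting signals was not made. Alternatives were other filters, scalings, 0.5 CPM added to both libraries and the whole interval past the threshold. Python 3.11.15, pandas 2.3.3 and scipy 1.17.1 were used, and the scripts were tested on simulated data.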

Additional observations from a re-analysis of the deposited data

How the results depend on the processing

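The count of 5 higher genes was also 5 with CPM above 0.5 in both libraries, with CPM above 1, with TMM or median-of-ratios scaling, without cardiac and skeletal muscle genes in the totals and with 0.5 CPM added, 6 with no filter (Acox2 added) and 3 when the whole interval had to reach 2. On a scale fixed by 76 ribosomal protein genes, where every log2 ratio gains 0.19, it was 10, with Abcd2, Amacr, Ech1, Pex11a and Scp2 added, against 11.4% of all genes higher and 2.94% lower. The count of lower genes was 1, and 0 on that ribosomal scale, with 0.5 CPM added and when the whole interval had to lie at or below 0.5. The median log2 ratio of the Pex genes was 0.20 and became 0.39 on the ribosomal scale. That of the enzymes and transporters was 0.55 and became 0.74 on the ribosomal scale and 0.51 with median-of-ratios scaling. The count of genes with a ratio above 1 was 35 of the 43. It became 40 on the ribosomal scale and 32 with median-of-ratios scaling. With median-of-ratios scaling Far2, Pex3 and Pex14 fell just below 1, at 0.996, 0.996 and 0.9999. On the ribosomal scale 22 of the 43 gene ratios left their own intervals, and no gene past the threshold changed direction. Recovered reads in place of the deposited values, an alternative chosen after seeing the data, gave the same 5 higher genes and 1 lower gene. Leaving the cardiac and skeletal muscle genes out of the totals changed the scale by a factor of 0.99925. The counts of 5 higher genes and 1 lower gene stayed the same. The count of genes with a ratio above 1 became 36 in this setting, as Pex10 moved from 1 to 1.0008. This setting does not address reads of the 43 genes that come from muscle. No paired analysis was possible because each genotype has 1 library, and for the same reason no library could be left out. Depth limits Acox2, Pex5l and Acot4 most, at 3, 26 and 78 reads in P2Y4 KO PAT.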
